A study of Mus musculus with 16 samples.

Results

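Apolipoproteins are the protein parts of the particles that carry lipid in blood, and 10 of the 55421 genes in the count tables were followed across all 16 libraries. They were Apoa1, Apoa2, Apoa4, Apoa5, Apob, Apoc1, Apoc3, Apoe, Apoh and Apom, chosen by name and matched to the tables through their Ensembl identifiers, with all 10 found. The libraries hold RNA of C57BL/6 mice on a diet written as HFD, which the labels assign to macrophages of WAT or of liver. In each tissue there were 4 groups of 2 libraries: Lyz2_cre+/_GPR132fl/fl mice (named CKO in the titles) given NOX_6_18, a compound described as an antagonist, CKO mice given vehicle, GPR132fl/fl mice (fl/fl) given NOX_6_18, and fl/fl mice given vehicle. Every group carried the floxed Gpr132 alleles, and Cre came from Lyz2, a gene active in myeloid cells, so that other cell types of a CKO mouse keep the gene. The labels state no age, dose or time of treatment, and do not tell whether a group's 2 libraries derive from different animals. P-values therefore reflect the spread between libraries alone, which may be technical.

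Most plasma apolipoproteins are made by hepatocytes, and in mice Apob and Apoa4 are also made by the intestine. Apolipoprotein B stays with its particle for life, as the frame of chylomicrons, VLDL and LDL, while the smaller members exchange between particles, activate or inhibit lipases and serve as ligands for receptors. Apoe is also secreted by macrophages themselves, where it takes part in cholesterol efflux.

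Gpr132, the floxed gene, had 56.4 and 59.1 CPM (counts scaled to a common library size) in WAT of CKO mice on NOX_6_18, 35.6 and 64.5 in CKO mice on vehicle, 60.3 and 60.1 in fl/fl mice on NOX_6_18 and 72.4 and 69.7 in fl/fl mice on vehicle. In liver it had 2.81 and 2.41 CPM in CKO mice on NOX_6_18, 1.86 and 1.46 in CKO mice on vehicle, 2.13 and 1.64 in fl/fl mice on NOX_6_18 and 4.26 and 4.04 in fl/fl mice on vehicle. Whole-gene counts in CKO mice were lower than in fl/fl mice on vehicle in liver (log2 fold change -1.32 ± 0.24, adjusted p = 0.0162, edgeR) but not called in WAT (-0.51 ± 0.22, adjusted p = 0.115), and not called on NOX_6_18 in either tissue. In liver they were also lower in fl/fl mice on NOX_6_18 than in fl/fl mice on vehicle (-1.13 ± 0.24, adjusted p = 0.0313, edgeR). The effect of NOX_6_18 on them there differed between genotypes (1.79 ± 0.34, adjusted p = 0.0344, edgeR). The lower liver counts were thus not particular to CKO mice. Counts over a whole gene cannot show whether the deleted part was lost. WAT libraries held 48348395 to 58396991 counts each and liver libraries 45624957 to 60761705. Mitochondrially encoded genes made up 2.31 to 3.61% of these in WAT and 43.0 to 44.9% in liver. Both libraries of fl/fl mice on vehicle lay away from the other 6 of their tissue on the first principal component, which held 72.2% of the variance in WAT (226 and 220, against -75.5 to -72.2) and 25% in liver (58.6 and 77.3, against -26 to -19.8). Each comparison against fl/fl vehicle therefore rests on these 2 libraries, and the treatment and genotype comparisons on that side share them. As for cell types, the summed level of 23 macrophage markers was 4109 to 4221 CPM in liver, beside 4071 to 5624 CPM for 29 hepatocyte markers, so both kinds of transcript were present. In WAT the sums were 12130 to 20393 CPM for the macrophage markers and 127 to 163 CPM for the hepatocyte markers, of which Hp alone had 34.6 to 46.8. Markers of other cell types were present as well. In WAT 10 fibroblast markers summed to 13210 to 25313 CPM, 17 adipocyte markers to 2768 to 5224 and 10 endothelial markers to 1847 to 2658. In liver the endothelial sum was 4580 to 4848 CPM, the adipocyte sum 568 to 593 and the fibroblast sum 309 to 364. The adipocyte and macrophage lists share some genes, Lpl among them, which alone had 852 to 2491 CPM in WAT and 71.6 to 126 in liver. Adipoq, on the adipocyte list only, had 5.74 to 12.3 CPM in WAT and 0 to 0.078 in liver. In liver of fl/fl mice on vehicle 4 of the 17 adipocyte markers were at 0. The adipocyte sums are thus no measure of adipocytes alone.

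Per kilobase of exon, a scale that allows genes to be compared, Apoe was the highest member in both tissues, at 693 ± 149 CPM per kb in WAT and 669 ± 126 in liver (SD over the 8 libraries of each tissue). CPM were scaled within each tissue, so these levels are not set against each other across tissues. In liver it was followed by Apoa2 (283 ± 34.0 CPM per kb), Apoa1 (267 ± 80.8) and Apoc1 (130 ± 12.8), then by Apoh (38.3 ± 6.40) and Apoc3 (37.2 ± 9.38). The lowest 4 in liver were Apoa5 (15.0 ± 4.21 CPM per kb), Apoa4 (10.2 ± 7.09), Apob (9.12 ± 2.67) and Apom (4.16 ± 1.10). Neighbours in that order overlapped over the 8 libraries except at 3 steps: Apoe stood above Apoa2, Apoc1 above Apoh, and Apoc3 above Apoa5. In WAT the step below Apoe went down to Apoc1, at 8.25 ± 4.04 CPM per kb, and the ranges of all later neighbours, from Apoa2 (2.72 ± 1.51) to Apoa5 (0.00695 ± 0.0129), overlapped. Apoe alone took 98.6 to 99.8% of the counts of the 10 genes in each WAT library, and 53.6 to 69.1% in each liver library. The composition of the pool thus differed between tissues mainly through the near absence of the other 9 members in WAT.

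In liver, 6 of the 10 members differed between fl/fl mice on NOX_6_18 and fl/fl mice on vehicle, 4 of them higher (Apoa1, Apoa2, Apoh, Apoc1) and 2 lower (Apoa4, Apob), where 5.52% of the 19515 genes tested were called, 3.78% higher and 1.74% lower. The same 6 members differed in the same directions between CKO and fl/fl mice on vehicle, where 5.8% of genes were called, 3.96% higher and 1.83% lower. Both counts use the fl/fl vehicle libraries and are not independent of each other. A call here means a Benjamini-Hochberg adjusted p under 0.05 over all genes tested by the quasi-likelihood test of edgeR, and each log2 fold change is given with its standard error (SE) from the fit. The median log2 fold change of the 10 members was 0.47 for NOX_6_18 and 0.51 for CKO, beside medians of 0.00 and -0.01 over all genes tested. In such bulk RNA, fewer cells of a type and less RNA per cell cannot be told apart.

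**Figure D1:**
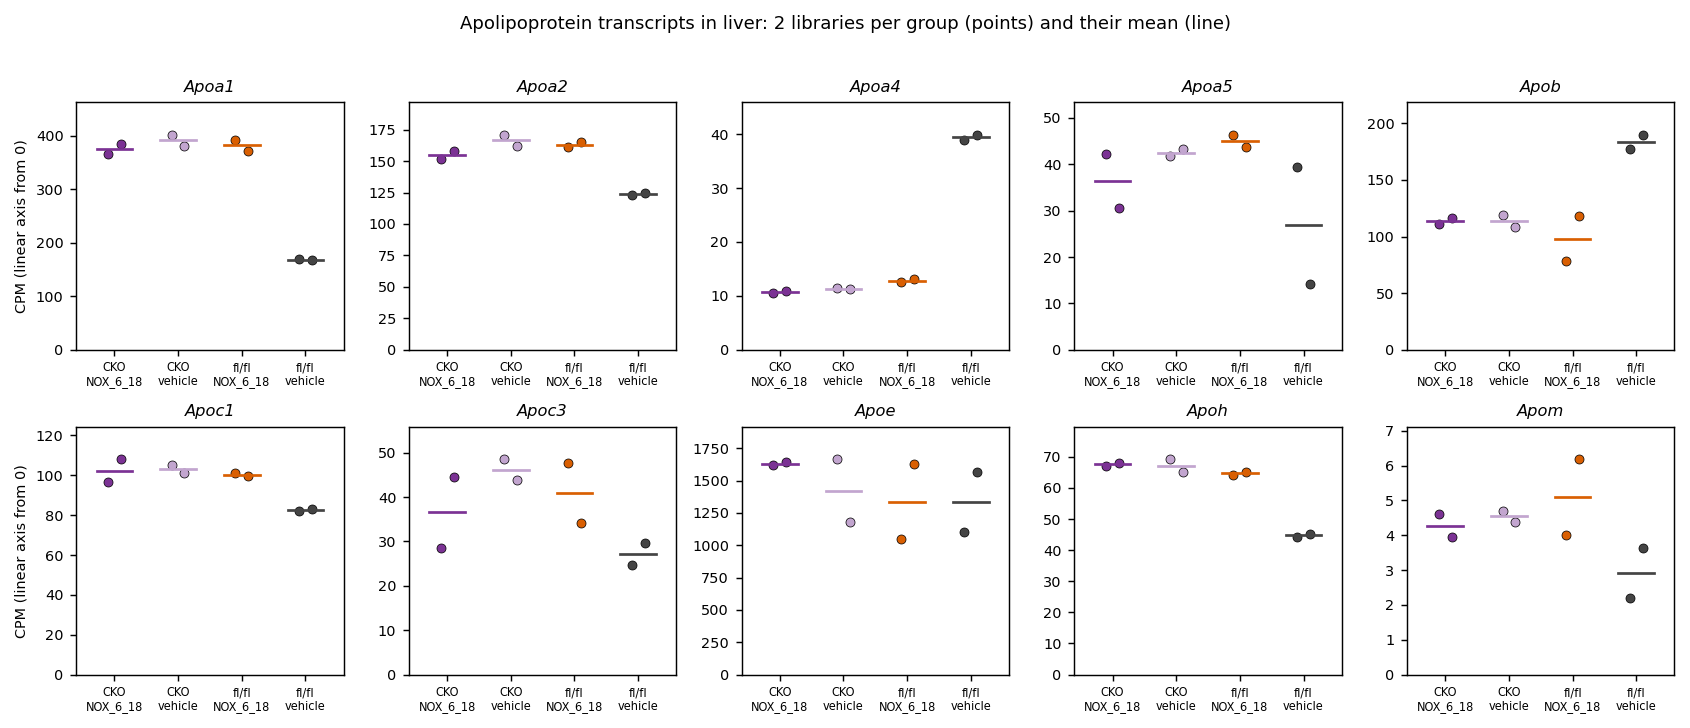
Level of each apolipoprotein transcript in liver, in CPM on a linear axis from 0, for the 4 groups (points are the 2 libraries of a group, lines their mean). Apoa1, Apoa2, Apoc1 and Apoh are lowest and Apoa4 and Apob highest in both fl/fl vehicle libraries, whereas the 2 libraries of a group lie far apart for Apoa5, Apoe and Apoc3.

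Apoa1, the main protein of HDL and activator of the enzyme that esterifies its cholesterol, showed the largest rise. Its level was 366 and 385 CPM in CKO mice on NOX_6_18, 402 and 381 in CKO mice on vehicle, 392 and 372 in fl/fl mice on NOX_6_18, and 169 and 168 in fl/fl mice on vehicle. The 6 libraries of the other 3 groups lay within a narrow band, and both fl/fl vehicle libraries lay well below it. The log2 fold change was 1.18 ± 0.05 for NOX_6_18 against vehicle in fl/fl mice (adjusted p = 1.02e-05, edgeR) and 1.21 ± 0.05 for CKO against fl/fl on vehicle (adjusted p = 9.07e-06).

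Apoa2, the second protein of HDL, had 152 and 158 CPM in CKO mice on NOX_6_18, 171 and 162 in CKO mice on vehicle, 161 and 165 in fl/fl mice on NOX_6_18, and 123 and 125 in fl/fl mice on vehicle. The order of the groups was as for Apoa1, with no overlap with fl/fl vehicle, but the step was smaller. It rose by 0.40 ± 0.05 on the log2 scale with NOX_6_18 (adjusted p = 0.00278, edgeR) and by 0.43 ± 0.05 in CKO mice (adjusted p = 0.00199). Apoh, beta-2-glycoprotein I, a plasma protein that binds anionic phospholipid, had 67.2 and 68.0 CPM in CKO mice on NOX_6_18, 69.2 and 65.2 in CKO mice on vehicle, 64.2 and 65.2 in fl/fl mice on NOX_6_18, and 44.2 and 45.3 in fl/fl mice on vehicle. Its 6 higher libraries differed from one another by little and none came near the 2 lower ones. The rise was 0.53 ± 0.06 with NOX_6_18 (adjusted p = 0.00138, edgeR) and 0.59 ± 0.06 in CKO mice (adjusted p = 0.000842).

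Apoc1, a small exchangeable protein that slows receptor uptake of remnants, had 96.4 and 108 CPM in CKO mice on NOX_6_18, 105 and 101 in CKO mice on vehicle, 101 and 99.8 in fl/fl mice on NOX_6_18, and 82.0 and 83.2 in fl/fl mice on vehicle. The groups did not overlap with fl/fl vehicle, yet the change was the smallest of those called, at 0.28 ± 0.06 with NOX_6_18 (adjusted p = 0.0441, edgeR) and 0.32 ± 0.06 in CKO mice (adjusted p = 0.0231). Leaving out any 1 of the 4 libraries compared ended either Apoc1 call, with adjusted p between 0.146 and 0.183 for NOX_6_18 and between 0.0727 and 0.134 for CKO. Removing the trend with GC content and length also ended the NOX_6_18 call (adjusted p = 0.0862), as did scaling by library totals alone (0.0568).

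Apoa4, an exchangeable protein of chylomicrons and HDL that in mice is made in intestine and liver, moved the other way. It had 10.5 and 10.9 CPM in CKO mice on NOX_6_18, 11.5 and 11.2 in CKO mice on vehicle, 12.5 and 13.2 in fl/fl mice on NOX_6_18, and 38.9 and 39.9 in fl/fl mice on vehicle. Both fl/fl vehicle libraries were far above the other 6, and the 2 libraries of every group were close together. The log2 fold change was -1.61 ± 0.09 for NOX_6_18 in fl/fl mice (adjusted p = 3.49e-05, edgeR) and -1.79 ± 0.09 for CKO on vehicle (adjusted p = 1.97e-05). Its exons overlap those of Gm10680 and Gm47528 on the opposite strand over 34.8 and 34.9% of their length, but these genes held 0 and 50 counts over the 16 libraries together.

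Apob fell as well. It had 111 and 116 CPM in CKO mice on NOX_6_18, 119 and 108 in CKO mice on vehicle, 78.2 and 118 in fl/fl mice on NOX_6_18, and 177 and 190 in fl/fl mice on vehicle. No library of the other groups reached the fl/fl vehicle libraries, and 1 of the fl/fl NOX_6_18 libraries lay well below the remaining 5. The log2 fold change was -0.90 ± 0.16 with NOX_6_18 (adjusted p = 0.0153, edgeR) and -0.69 ± 0.16 in CKO mice (adjusted p = 0.0442). Without replicate 1 of fl/fl on NOX_6_18, the low library, it was -0.63 (adjusted p = 0.0105), and without replicate 2 it was -1.23 (adjusted p = 0.000585). Without fl/fl vehicle replicate 1 the NOX_6_18 call was lost (adjusted p = 0.0514), as it was without replicate 2 (adjusted p = 0.0826). The CKO call was lost when any 1 of its 4 libraries was left out, with adjusted p between 0.12 and 0.216, and with the GC content and length trend removed (0.069). The NOX_6_18 call missed the threshold when the 2 groups were fitted alone (0.0536).

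Apoa1 and Apoa4, the members with the largest rise and the largest fall in liver, lie in the same cluster on chromosome 9 of the mouse genome (GRCm38, GENCODE M21), with Apoc3 between them. Apoa1 lies at chr9:46228580-46230466 on the plus strand, Apoc3 at chr9:46232933-46235636 on the minus strand, Apoa4 at chr9:46240696-46243459 and Apoa5 at chr9:46268633-46271919, both on the plus strand. The gaps between them are 2466, 5059 and 25173 bases. The upstream sequences of the pair that moved apart, of the other clear rises (Apoa2 and Apoh) and of Apob follow, from RefSeq on GRCm38.p6, plus strand, each cut before the first GENCODE exon base it reaches. The Apoh stretch precedes the RefSeq start but lies within the GENCODE gene, chr11:108343354-108414396, in introns of transcripts that start farther upstream. Capitals mark matches to any of 6 motifs searched on both strands (CAAAGTCCA of hepatocyte nuclear factor 4, AGGTCA of nuclear receptors, TATAAA of core promoters, TGTTTAC of forkhead factors, CACGTG of E-box factors and GTTAAT of hepatocyte nuclear factor 1).
Apoa1, chr9:46228380-46228579: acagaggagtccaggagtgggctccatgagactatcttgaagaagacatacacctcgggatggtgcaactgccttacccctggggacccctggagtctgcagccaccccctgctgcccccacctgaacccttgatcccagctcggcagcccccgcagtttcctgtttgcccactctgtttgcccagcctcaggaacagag
Apoa4, chr9:46240594-46240695: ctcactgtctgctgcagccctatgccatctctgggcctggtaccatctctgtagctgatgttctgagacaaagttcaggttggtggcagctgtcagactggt
Apoa2, chr1:171224804-171225053: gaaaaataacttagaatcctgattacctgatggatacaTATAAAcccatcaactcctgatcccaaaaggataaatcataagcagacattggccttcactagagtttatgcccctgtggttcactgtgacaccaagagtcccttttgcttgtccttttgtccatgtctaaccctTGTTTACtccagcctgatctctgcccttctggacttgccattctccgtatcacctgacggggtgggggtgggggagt
Apoh, chr11:108395047-108395292: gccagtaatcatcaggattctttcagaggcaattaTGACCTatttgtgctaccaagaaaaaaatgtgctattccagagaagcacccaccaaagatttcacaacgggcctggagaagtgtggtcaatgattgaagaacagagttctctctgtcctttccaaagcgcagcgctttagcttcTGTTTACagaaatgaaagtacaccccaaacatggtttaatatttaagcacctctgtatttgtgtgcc
Apob, chr12:7977427-7977647: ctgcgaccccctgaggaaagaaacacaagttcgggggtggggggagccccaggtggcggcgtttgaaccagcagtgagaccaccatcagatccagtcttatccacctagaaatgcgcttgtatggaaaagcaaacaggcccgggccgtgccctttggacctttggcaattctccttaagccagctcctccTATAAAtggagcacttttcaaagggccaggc

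The Apoa2 and Apoh sequences both hold the forkhead letters TGTTTAC on the plus strand, at positions -77 and -71 from the RefSeq start, a word found in 3.65% of 32851 windows of 300 bases around gene starts. Apoh also holds AGGTCA on the minus strand at position -215 (16.3% of windows), Apoa2 holds TATAAA at -212, and Apob holds TATAAA at -60 (13.6% of windows). Outside the printed sequences, a window of Apoe, which was not called in liver, held TGTTTAC on the minus strand at -5. Windows of Apoe and Apoa5 held other matches too. No match to the 6 motifs lay in the windows of Apoa1, Apoa4 or Apom. Of the 10 genes, 8 had a window in the RefSeq table, and a match is only a run of letters, not a bound site.

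The remaining 4 members in liver passed no test in these comparisons, and for each of them the libraries of at least 1 group lay far apart. Apoa5, which raises lipoprotein lipase activity, had 42.3 and 30.5 CPM in CKO mice on NOX_6_18, 41.7 and 43.3 in CKO mice on vehicle, 46.4 and 43.8 in fl/fl mice on NOX_6_18, and 39.5 and 14.2 in fl/fl mice on vehicle. One fl/fl vehicle library was within reach of the others and the other was far below all 7. The log2 fold change was 0.74 ± 0.38 with NOX_6_18 (adjusted p = 0.354, edgeR) and 0.66 ± 0.38 in CKO mice (adjusted p = 0.426). Without fl/fl vehicle replicate 1 these became 1.67 (adjusted p = 0.00404) and 1.58 (adjusted p = 0.00507), so a single library decided them.

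Apoc3, an inhibitor of lipoprotein lipase, had 28.6 and 44.6 CPM in CKO mice on NOX_6_18, 48.5 and 43.9 in CKO mice on vehicle, 47.6 and 34.2 in fl/fl mice on NOX_6_18, and 24.6 and 29.6 in fl/fl mice on vehicle. The lower library of CKO mice on NOX_6_18 fell within the fl/fl vehicle range, while the other 5 lay above it. Its log2 fold changes were 0.59 ± 0.22 with NOX_6_18 (adjusted p = 0.193, edgeR) and 0.77 ± 0.22 in CKO mice (adjusted p = 0.0935, or 0.02 when these 2 groups were fitted alone). Apom, the sphingosine-1-phosphate carrier of HDL, was low throughout, from 2.21 to 6.18 CPM, and its libraries differed by up to 1.65-fold within a group, with log2 fold changes of 0.80 ± 0.29 (adjusted p = 0.175) and 0.64 ± 0.29 (adjusted p = 0.285).

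Apoe in liver had 1617 and 1641 CPM in CKO mice on NOX_6_18, 1664 and 1181 in CKO mice on vehicle, 1047 and 1627 in fl/fl mice on NOX_6_18, and 1099 and 1566 in fl/fl mice on vehicle. In 3 of the 4 groups 1 library held 1047 to 1181 CPM and the other 1566 to 1664 CPM, so that the low and high libraries of a group differed more than the groups did. The log2 fold change was 0.00 ± 0.24 with NOX_6_18 (adjusted p = 0.999, edgeR) and 0.09 ± 0.24 in CKO mice (adjusted p = 0.901). The largest gap between libraries of a group was 1.55-fold for Apoe, a gap that 5.1% of the 5270 liver genes at 20 CPM or more matched or passed. For Apoa5 the largest gap was 2.78-fold (0.968% of genes), for Apoc3 1.56-fold (5.03%) and for Apob 1.51-fold (5.58%). For Apoa1, Apoa2, Apoa4 and Apoh it was 1.06-fold, and 88.8 to 90.2% of genes had one as large. The low library was not the same for these genes: Apoe was low in fl/fl vehicle replicate 1, in which Apoa5 was high, and Apob and Apoe were low in fl/fl NOX_6_18 replicate 1, in which Apoc3 was high.

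Among the groups other than fl/fl vehicle, edgeR called no member in liver. Comparing NOX_6_18 with vehicle within CKO mice, 0 of 10 members were called by edgeR and 0 had an unadjusted p under 0.05, with 0.0359% of genes called and log2 fold changes from -0.34 (Apoc3) to 0.20 (Apoe). Comparing CKO with fl/fl mice on NOX_6_18, 0 of 10 were called by edgeR and 1 had an unadjusted p under 0.05, with 0.0359% of genes called. That was Apoa4, at -0.27 ± 0.09 (adjusted p = 1). DESeq2 and limma-voom also called 0 members in both comparisons. The effect of NOX_6_18 itself differed between genotypes for 4 members, at a background of 2.45% of genes, 0.584% higher and 1.87% lower. For Apoa1 (interaction -1.24 ± 0.07, adjusted p = 9.98e-05), Apoa2 (-0.50 ± 0.07, adjusted p = 0.0101) and Apoh (-0.52 ± 0.08, adjusted p = 0.0159) it was smaller in CKO than in fl/fl mice, and for Apoa4 it was higher by 1.53 ± 0.13 (adjusted p = 0.000619, edgeR). The Apoh interaction was lost in 7 of 8 fits that left out 1 library, with adjusted p up to 0.0704. In a fit over all 16 libraries the Apoa1 interaction was the only one still called by edgeR, with adjusted p of 0.429 for Apoa2, 0.193 for Apoa4 and 0.349 for Apoh.

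In WAT, Apoe was the single member at a high level, and edgeR called it lower with NOX_6_18 in fl/fl mice. It had 1188 and 1238 CPM in CKO mice on NOX_6_18, 1862 and 1791 in CKO mice on vehicle, 1195 and 1261 in fl/fl mice on NOX_6_18, and 1407 and 1920 in fl/fl mice on vehicle. All 4 NOX_6_18 libraries lay below all 4 vehicle libraries, whichever the genotype, a pattern seen after the values were known. The share of all genes that part in this way was not counted, so nothing is read from it. In fl/fl mice the log2 fold change was -0.44 ± 0.12 (adjusted p = 0.0218, edgeR). In CKO mice it was -0.59 ± 0.12, with an unadjusted p of 0.00118 that gave an adjusted p of 1 among 25871 genes. DESeq2 called it there (adjusted p = 0.00267), as did edgeR on those 2 groups alone (adjusted p = 0.0391). The interaction with genotype was -0.15 ± 0.17 (adjusted p = 0.575, edgeR). The genotype itself gave 0.13 ± 0.12 on vehicle (adjusted p = 0.428) and -0.02 ± 0.12 on NOX_6_18 (adjusted p = 1).

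The Apoe result in fl/fl mice rested on few libraries and on the scaling. Without fl/fl vehicle replicate 1 it was -0.64 (adjusted p = 4.64e-05), and without replicate 2 it was -0.19 (adjusted p = 0.0216). The call was lost without NOX_6_18 replicate 1 (adjusted p = 0.12) or replicate 2 (adjusted p = 0.0888), with libraries scaled by their totals alone (-0.27, adjusted p = 0.126), and when the 2 groups were fitted alone (-0.43, adjusted p = 0.0889). Without fl/fl vehicle replicate 2 the genotype difference on vehicle became 0.38 (adjusted p = 0.00107) and the interaction -0.40 (adjusted p = 0.00383), so these too turned on that library. The macrophage markers were also lower with NOX_6_18 in fl/fl mice, with 3 of 23 called higher and 18 lower. Their median log2 fold change was -0.69 beside 0.12 for all genes. Their summed level there was 12250 to 12325 CPM, against 19151 to 20393 CPM in fl/fl mice on vehicle. In CKO mice the sums were 12252 to 12263 CPM on NOX_6_18 and 12130 to 12691 CPM on vehicle. Apoe itself had 1862 and 1791 CPM in CKO mice on vehicle. With NOX_6_18 in fl/fl mice 10 of 10 endothelial and 9 of 10 fibroblast markers were lower too, beside 13.2% of all genes. The part of these cell types in the Apoe difference was not tested.

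**Figure D2:**
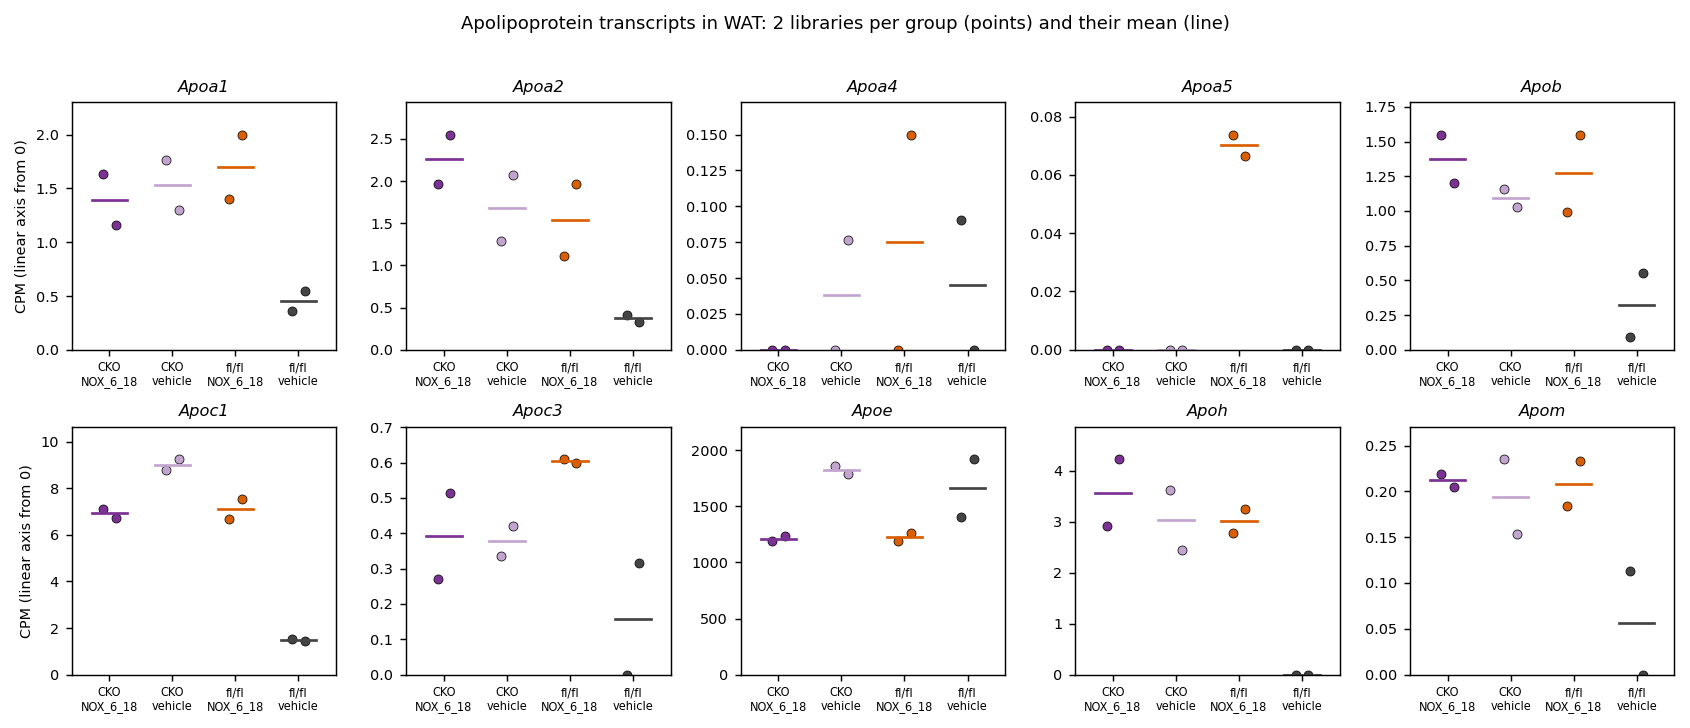
Level of each apolipoprotein transcript in WAT, in CPM on a linear axis from 0 whose scale differs between panels (points are the 2 libraries of a group, lines their mean). Apoe is at 1188 to 1261 CPM in the NOX_6_18 libraries of both genotypes and from 1407 to 1920 CPM in the vehicle libraries, while Apoc1 and Apoh are lowest in the fl/fl vehicle libraries.

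The other WAT members were scarce. Of the 10, 8 passed the filter on low counts, and 5 of these were called for NOX_6_18 against vehicle in fl/fl mice, 4 higher (Apoh, Apoc1, Apoa2, Apoa1) and Apoe lower, where 37.8% of genes were called, 24.6% higher and 13.2% lower. For CKO against fl/fl mice on vehicle the same 4 were called higher, where 36.8% of genes were called, 24.4% higher and 12.4% lower. These backgrounds are high and several of the genes passed the filter only through the groups in which they were higher, so nothing is read from the counts.

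Apoc1 had 7.13 and 6.74 CPM in CKO mice on NOX_6_18, 8.79 and 9.25 in CKO mice on vehicle, 6.68 and 7.54 in fl/fl mice on NOX_6_18, and 1.54 and 1.46 in fl/fl mice on vehicle. Its 2 lowest libraries were those of fl/fl mice on vehicle, at 68 and 74 counts, and the others held 362 to 523 counts. The log2 fold change was 2.25 ± 0.17 with NOX_6_18 (adjusted p = 1.9e-05, edgeR) and 2.59 ± 0.17 in CKO mice (adjusted p = 8.39e-06). Apoe, which lies 3448 bases from Apoc1 on chromosome 7 and on the same minus strand, showed no such step.

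Apoh had no read (0 counts) in either library of fl/fl mice on vehicle, and had 173 and 247 counts in CKO mice on NOX_6_18, 215 and 128 in CKO mice on vehicle and 151 and 195 in fl/fl mice on NOX_6_18. Taking 3 counts for the whole fl/fl vehicle group as its floor, the level was at least 95.5-fold higher with NOX_6_18 in fl/fl mice and at least 96.0-fold higher in CKO mice on vehicle. A count of 0 allows a level up to the floor of 0.0316 CPM. Apoh passed the filter only through the groups in which it was present, so it had to differ and its test adds nothing to these counts. Of its exons, 30 bases (1.88%) overlap Prkca on the other strand.

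Apoa1 had 97 and 68 counts in CKO mice on NOX_6_18, 105 and 68 in CKO mice on vehicle, 76 and 120 in fl/fl mice on NOX_6_18, and 16 and 28 in fl/fl mice on vehicle. Apoa2 had 117 and 149 counts in CKO mice on NOX_6_18, 77 and 108 in CKO mice on vehicle, 60 and 118 in fl/fl mice on NOX_6_18, and 18 and 17 in fl/fl mice on vehicle. Neither gene overlapped between fl/fl vehicle and the other groups. Apoa1 rose by 1.89 ± 0.41 on the log2 scale with NOX_6_18 (adjusted p = 0.00734, edgeR) and by 1.74 ± 0.41 in CKO mice (adjusted p = 0.011), a call lost without CKO vehicle replicate 1 (adjusted p = 0.0629). Apoa2 rose by 2.05 ± 0.44 (adjusted p = 0.0069) and 2.17 ± 0.44 (adjusted p = 0.00533).

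Apob had 92 and 70 counts in CKO mice on NOX_6_18, 69 and 54 in CKO mice on vehicle, 54 and 93 in fl/fl mice on NOX_6_18, and 4 and 28 in fl/fl mice on vehicle. Both fl/fl vehicle libraries were the lowest, but 1 much more than the other. The log2 fold changes were 1.96 ± 0.67 with NOX_6_18 (adjusted p = 0.0502, edgeR) and 1.74 ± 0.67 in CKO mice (adjusted p = 0.0759). Without fl/fl vehicle replicate 2 they were 3.78 and 3.57, against the 4 counts of replicate 1 alone. DESeq2 called Apob in both comparisons (adjusted p = 0.0164 and 0.0362), and limma-voom in that of NOX_6_18 (0.042). Apob too passed the filter only through the groups in which it was higher, so nothing is read from these tests. Apoc3 held 0 to 36 counts and Apom 0 to 14 counts in any WAT library, and neither was called. Apoa4 held 0 to 9 counts and Apoa5 0 or 4 counts in any WAT library, and both were left out of the fit.

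The liver-made transcripts in WAT can be set beside other hepatocyte transcripts. Of 29 hepatocyte markers that are no apolipoproteins, 16 were higher and 2 lower in WAT with NOX_6_18 in fl/fl mice, where 24.6% of all genes were higher and 13.2% lower. Their median log2 fold change was 1.95 beside 0.12 for all genes. In CKO mice on vehicle 17 were higher and 1 lower, where 24.4% of all genes were higher and 12.4% lower, with a median of 2.27 beside 0.10. Alb, the albumin transcript, had 28.6 and 31.0 CPM in CKO mice on NOX_6_18, 30.7 and 28.9 in CKO mice on vehicle, 28.2 and 33.4 in fl/fl mice on NOX_6_18, and 5.50 and 4.94 in fl/fl mice on vehicle. The summed level of the list was 149 to 163 CPM in the other 3 groups and 127 to 139 CPM in fl/fl mice on vehicle, where 3 of the 29 genes were at 0. Much of that sum came from 2 markers. Hp had 40.9 to 46.8 CPM in fl/fl mice on vehicle and 34.6 to 38.8 CPM in the other 3 groups. Vtn held 5438 counts in the fl/fl vehicle group, where Alb held 494. The sum thus does not follow the markers that rose. Male germ cell markers moved on the same side, with 14 of 14 higher in each comparison and sums of 897 to 975 CPM in the other 3 groups against 22.9 to 28.3 CPM in fl/fl mice on vehicle. Epididymis and Leydig cell markers did so too, with 11 of 11 higher in each and sums of 1264 to 1424 CPM against 387 to 439 CPM. The part of any of these lists in the apolipoprotein values was not tested.

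Among the groups other than fl/fl vehicle, edgeR called 0 of the 8 tested members in WAT. For NOX_6_18 against vehicle in CKO mice 2 had an unadjusted p under 0.05 (Apoe, above, and Apoc1 at -0.38 ± 0.15), with 0.0155% of genes called, and DESeq2 called 1. For CKO against fl/fl mice on NOX_6_18 none had an unadjusted p under 0.05 and DESeq2 called 0, with 0.0348% of genes called. The effect of NOX_6_18 differed between genotypes for 3 members, all smaller in CKO mice, where 25.3% of genes were called and 18.6% were lower. These were Apoh, with the same limit, Apoc1 (-2.62 ± 0.22, adjusted p = 6.8e-05) and Apoa1 (-2.02 ± 0.55, adjusted p = 0.0302, edgeR), the last lost in 5 of 8 fits that left out 1 library.

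**Figure D3:**
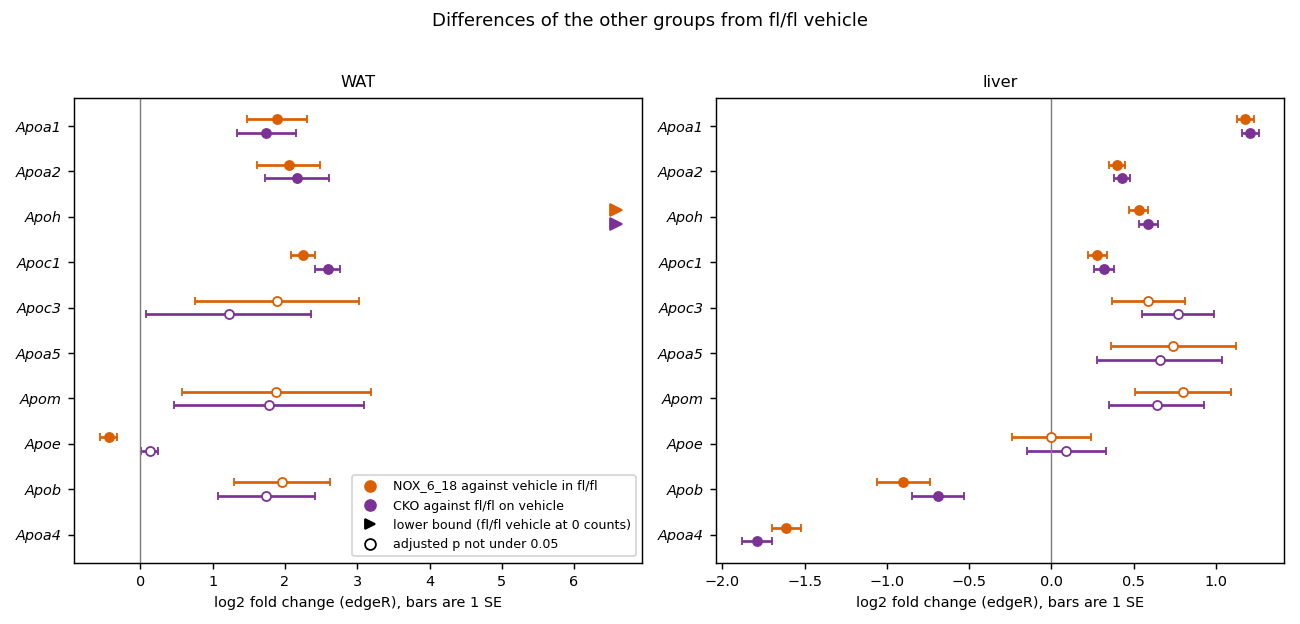
Log2 fold change of each apolipoprotein transcript in WAT (left) and liver (right) for fl/fl mice on NOX_6_18 and for CKO mice on vehicle, each against fl/fl mice on vehicle (bars are 1 SE, open circles have an adjusted p of 0.05 or more, triangles are lower bounds, Apoa4 and Apoa5 were not tested in WAT). Both comparisons share the fl/fl vehicle libraries; Apoa4 is at -1.61 and -1.79 in liver, Apob lies left of 0 in liver and right of it in WAT, and Apoe is at -0.44 in WAT with NOX_6_18.

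Set against liver in fl/fl mice on vehicle, all 10 members were lower in WAT, where 38.2% of genes were called and 16.5% were lower. The difference ran from -6.76 ± 0.62 on the log2 scale (Apom) to -10.83 ± 0.64 (Apoa4) for the 7 members other than Apoe, Apoa5 and Apoh, and the last 2 were at 0 counts in those WAT libraries. Both ends of that range lay near the floor, as Apom held 5 and 0 counts there and Apoa4 4 and 0. Apoc3 held 0 and 16 counts. For Apoe it was -0.75 ± 0.22 (adjusted p = 0.0178, edgeR), but 0.20 (adjusted p = 0.478) when libraries were scaled by their totals alone, so its direction depended on the scaling. Without WAT replicate 1 or liver replicate 2 of fl/fl on vehicle the call was lost (adjusted p = 0.163 and 0.189). The effects of NOX_6_18 in fl/fl mice differed between WAT and liver for 4 members, all higher in WAT: Apob by 2.83 ± 0.53 (adjusted p = 0.00321), Apoc1 by 1.97 ± 0.12 (adjusted p = 9.18e-07), Apoa2 by 1.66 ± 0.37 (adjusted p = 0.01, edgeR) and Apoh, again from 0 counts, where 14.7% of genes were called and 7.51% were higher. The CKO effect on vehicle differed for the same 4, where 14.2% were called and 7.44% were higher, with Apob at 2.41 ± 0.54 (adjusted p = 0.01), Apoc1 at 2.27 ± 0.12 (adjusted p = 3.52e-07) and Apoa2 at 1.75 ± 0.37 (adjusted p = 0.00764, edgeR). Limma-voom did not call the Apob difference (adjusted p = 0.095 for NOX_6_18 and 0.154 for CKO), and with the GC content and length trend removed that of Apoa2 fell to 1.04 (0.0753) and 1.13 (0.0543). Apob is the member whose signs differed, lower in liver and with positive, uncalled values in WAT.

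**Figure D4:**
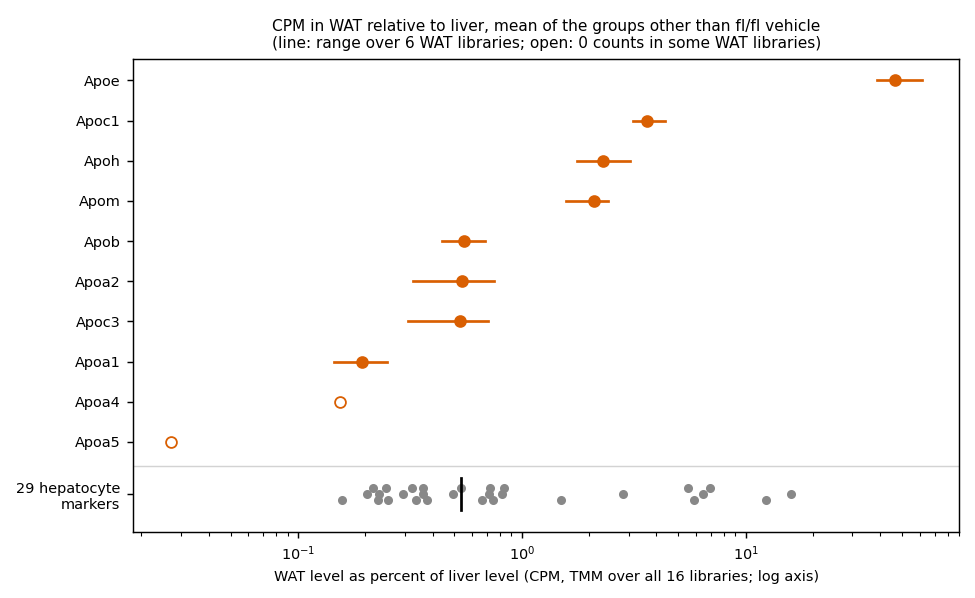
Mean CPM in WAT as a percent of the mean CPM in liver, with CPM scaled by TMM over all 16 libraries, over the groups other than fl/fl vehicle, on a log axis, for the 10 apolipoprotein transcripts (lines are the range over 6 WAT libraries, open circles had 0 counts in some) and 29 hepatocyte markers (grey, black line at their median). Apoe lies at 46.6%, Apoc1, Apoh and Apom at 2.11 to 3.61%, and the other 6 members at or below 0.551%, beside a marker median of 0.537%.

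Levels were set across tissues with CPM scaled over all 16 libraries by TMM, not within a tissue as above. Over the groups other than fl/fl vehicle, the WAT level was then 46.6% of the liver level for Apoe, 3.61% for Apoc1, 2.31% for Apoh and 2.11% for Apom. For Apob it was 0.551%, for Apoa2 0.541% and for Apoc3 0.531%, close to the median of 0.537% over the 29 hepatocyte markers, of which Serpina1c was lowest at 0.158% and Cyp3a11 highest, and Alb was at 0.818%. Apoa1 was at 0.193%, Apoa4 at 0.155% and Apoa5 at 0.027%, the last 2 on 13 and 8 WAT counts in all. With CPM scaled within each tissue, a setting added after the data were seen, every percent was higher, at 97.2% for Apoe, 7.55% for Apoc1 and 1.71% for Alb, with a marker median of 1.12%. The size of each percent thus depended on the scaling. Scaling multiplies every gene of a library by the same factor, so the order of the members was bound to stay nearly the same. In that order Apoe had the highest percent of the 10 members and Apoc1 the second highest.

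Genes that act with the apolipoproteins were called in some lists and not in others in liver, beside 5.52% of all genes called for NOX_6_18 and 5.8% for CKO. Of 14 genes of lipoprotein assembly and secretion, edgeR called 0 in liver for either comparison, and the 2 with the smallest p for NOX_6_18 were Mia2, a secretory-pathway receptor, at -0.20 ± 0.08 and Creb3l3, a liver transcription factor, at -0.36 ± 0.15. Of 10 sterol transporters 0 were called in either, with Abcg1, which passes cholesterol to HDL, at -0.19 ± 0.06 for NOX_6_18 (adjusted p = 0.106). At an unadjusted p under 0.05 there were 2 assembly genes and 1 transporter for NOX_6_18, and 1 assembly gene and 3 transporters for CKO. DESeq2 and limma-voom also called 0 genes of both lists in each comparison. Of 12 lipases and their cofactors, 1 was higher (Pltp, the phospholipid transfer protein, 0.31 ± 0.07, adjusted p = 0.0348) and 1 lower (Lpl, lipoprotein lipase, -0.71 ± 0.07, adjusted p = 0.000459) with NOX_6_18. In CKO mice Angptl4, a lipase inhibitor, rose by 0.66 ± 0.15 (adjusted p = 0.0427) and Lpl fell by 0.65 ± 0.07 (adjusted p = 0.000741).

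Among 18 lipoprotein receptors and uptake genes in liver, 3 were higher and 2 lower in each comparison, with Stab2, a scavenger receptor of liver endothelium, at 0.28 ± 0.04 for NOX_6_18 and 0.27 ± 0.04 for CKO. Of 25 transcription factors known to act on apolipoprotein genes, 4 were higher and 1 lower with NOX_6_18, and 2 higher and 2 lower in CKO mice. Hnf4a, the hepatocyte nuclear receptor, rose by 0.97 ± 0.08 with NOX_6_18 (adjusted p = 0.000204, edgeR) and by 1.02 ± 0.08 in CKO mice, and Foxa3, a hepatic forkhead factor, by 1.42 ± 0.20 and 1.82 ± 0.20. Of 20 further apolipoprotein-named or editing genes, 5 were higher and 1 lower with NOX_6_18, among them Saa4, a constitutive HDL protein, at 1.21 ± 0.15, Apof, a minor HDL protein, at 0.76 ± 0.12, and Clu, clusterin, at -0.36 ± 0.04. In CKO mice 6 were higher and 1 lower.

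The hepatocyte markers of liver moved with Apoa1: 20 of 29 were higher and 2 lower with NOX_6_18 in fl/fl mice (median 0.75 beside 0.00 for all genes), and 21 higher and 2 lower in CKO mice (median 0.70 beside -0.01). Their summed level was 5495 to 5624 CPM in the other 3 groups and 4071 to 4254 CPM in fl/fl mice on vehicle. Pck1, of gluconeogenesis, rose by 1.81 ± 0.05, Tat, a tyrosine-degrading enzyme, by 2.19 ± 0.07 and Hp, haptoglobin, by 1.41 ± 0.05 with NOX_6_18, whereas Alb was at -0.16 ± 0.03 (adjusted p = 0.0187, edgeR). Neutrophil markers were higher too, 9 of 12 in each comparison, with sums of 134 to 144 CPM in the other 3 groups and 35.9 to 37.3 CPM in fl/fl mice on vehicle. The macrophage markers, at 4180 to 4221 CPM in the other 3 groups and 4109 to 4112 CPM in fl/fl mice on vehicle, summed to nearly the same level, with 4 of 23 called higher and 5 lower for NOX_6_18. Of 9 markers of Kupffer cells, the resident macrophages of liver, 4 were higher and 1 lower for NOX_6_18, and 5 higher and 1 lower for CKO. These summed to 2010 to 2057 CPM in the other 3 groups and 1764 to 1809 CPM in fl/fl mice on vehicle. The part of these cell types in the apolipoprotein values was not tested.

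In WAT, where 37.8% of all genes were called for NOX_6_18 in fl/fl mice, 24.6% higher and 13.2% lower, the counts of called genes in a list are descriptions and nothing is read from them. Of 14 assembly genes 3 were higher and 3 lower, among them Mttp, which loads lipid onto apolipoprotein B, at 1.70 ± 0.22 (adjusted p = 0.000492, edgeR), and Dgat2, of triglyceride synthesis, at 1.25 ± 0.11. Of 12 lipases and cofactors 1 was higher and 4 lower, with Lpl at -1.45 ± 0.07. Of 10 sterol transporters 1 was higher and 4 lower, with Abcg1 at -0.83 ± 0.08, and of 19 receptor genes 3 were higher and 7 lower, with Cd36, the fatty acid receptor, at -0.86 ± 0.04. Nr1h3, the liver X receptor alpha that induces Apoe in macrophages, was at -0.80 ± 0.11 with NOX_6_18 and -0.70 ± 0.11 in CKO mice on vehicle. Apoe was at -0.44 ± 0.12 and 0.13 ± 0.12 in the same comparisons. Any part of Nr1h3 in the Apoe values was not tested.

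By the root mean square difference of centred log2 CPM over the 8 libraries of a tissue, the pattern nearest to that of liver Apoa1 among 9861 genes was Per1 (0.0435, where Apoa1 itself varied by 0.513 about its mean), followed by Fgg and Upb1. Nearest to Apoh were C6 (0.0218), Clec4g and Cat, and nearest to Apoa4 were Cyp3a25 (0.174), Ighd and Nuak1. For liver Apoe the nearest was Rnf19b (0.103, against a spread of 0.271 of its own), and for WAT Apoe Ror2 (0.13, against 0.283).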

How the data were processed

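Each of the 16 libraries had a table of whole-number read counts per Ensembl gene, deposited by the authors without normalization. Per the submitters' processing notes, HISAT, featureCounts 1.5.0, DESeq 1.8.3 and GRCm38 were involved, without a stated role. How strand was handled, the annotation release and any filter were not stated in these notes or labels, so genes that overlap on opposite strands may share reads. Of 55421 identifiers, 55154 (99.5%) matched a GENCODE M21 symbol, and 0 pairs of libraries were identical.

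Counts were tested with edgeR 4.0.16 in R 4.3.3 (quasi-likelihood test, TMM scaling, filterByExpr by group, 1 coefficient per group) over the 8 libraries of a tissue, or all 16 for contrasts between tissues. P-values were adjusted over all genes tested by Benjamini-Hochberg and called under 0.05. The edgeR test of NOX_6_18 against vehicle in fl/fl mice was run on simulated counts for each tissue. Other contrasts and fits were not simulated. CPM are scaled by TMM within a tissue, and over all 16 libraries where levels are set across tissues. Floors are 3 counts and cover counting error only. The text names all 10 members, Gpr132, up to 4 called genes per list, up to 2 uncalled genes with the smallest p where a list had none, and the nearest patterns. It also names single markers that bear on a summed level or end a range. Members and the 15 gene lists were chosen with earlier results of these data known. Alternatives were other scalings, filters, thresholds and fits, DESeq2 1.42.0, limma-voom (limma 3.58.1) and leaving out each library in turn.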

Additional observations from a re-analysis of the deposited data

Results flagged for a closer look

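These results were flagged because the effect of one factor differed between groups by a test of the difference itself (edgeR, adjusted p under 0.05 over all genes). Groups of 2 libraries allow no check for outlying samples.

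In WAT the effect of NOX_6_18 in CKO mice minus that in fl/fl mice was -2.02 for Apoa1, -2.62 for Apoc1 and -10.14 for Apoh on the log2 scale. In liver it was -1.24 for Apoa1, -0.50 for Apoa2, 1.53 for Apoa4 and -0.52 for Apoh. In each of these 7, fl/fl mice on vehicle were the group that stood apart.

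The effect of NOX_6_18 in fl/fl mice was higher in WAT than in liver by 1.66 for Apoa2, 2.83 for Apob, 1.97 for Apoc1 and 9.39 for Apoh. The effect of CKO on vehicle was higher in WAT than in liver by 1.75 for Apoa2, 2.41 for Apob, 2.27 for Apoc1 and 9.35 for Apoh. Apoh was at 0 counts in the fl/fl vehicle libraries of WAT, so its fitted differences depend on the prior count and are no bounds, and it passed the filter only through the groups in which it was present. Each Apoa2 difference between tissues was lost in 1 fit that left out a library, with an adjusted p of 0.0607 for NOX_6_18 and 0.0503 for CKO.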

How the results depend on the processing

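Calls rest on 2 libraries a group, and fl/fl vehicle enters most of them. Over all members and comparisons, 1143 alternative values kept direction and side of the threshold, 18 lost the call, 15 gained one and 13 reversed, and of the values with 1 library left out 537, 33, 16 and 46 did so. The counts of members called changed as follows. In WAT they were 3 to 7 for CKO on vehicle with a library left out (4 with all), 4 to 7 for NOX_6_18 in fl/fl (5), 2 to 6 for the interaction (3), and 1 for NOX_6_18 in CKO by DESeq2 and by a fit of those groups alone (0). In liver, with a log2 fold change of at least 1 required, they were 2 for NOX_6_18 and 2 for CKO (6 each) and 2 for the interaction (4), which had 1 in the fit over all 16 libraries. The liver counts for NOX_6_18 and for CKO were also lower whenever any 1 of the libraries compared was left out. Limma-voom called 2 for the NOX_6_18 effect between tissues (4). These values changed sign. NOX_6_18 in CKO: Apoc3 in WAT at -0.01 by limma-voom; Apob in liver at -5.1e-05 by RLE, -0.02 with the GC and length trend removed, -0.0049 unfiltered, -2.5e-05 by DESeq2 and -0.00027 by limma-voom. Others were Apom at -0.0014 (GC and length, WAT CKO on NOX_6_18), Apoe at -0.01 (limma-voom, liver NOX_6_18 in fl/fl), Apoe at 0.20 (totals only, WAT against liver) and Apoe at -0.14 (GC and length, CKO effect between tissues).

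The shared replicate numbers did not pair the samples (deviations correlated at -0.0274 to 0.025), and with the number as a block Apoc3 was -0.05 and Apom -0.02 in those WAT comparisons and Apob -0.01 in liver. The block also ended the calls of Apoa1 (WAT interaction, adjusted p = 0.0501), Apoc1 (liver, NOX_6_18 in fl/fl, 0.0699) and Apob (liver, CKO on vehicle, 0.0525, edgeR), and changed no other call.

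With 1 library left out, values that changed sign ran as follows. On vehicle, CKO against fl/fl: Apoe -0.07 to 0.38 in WAT and -0.17 to 0.38 in liver. NOX_6_18 in CKO, WAT: Apoa1 -0.4 to 0.1, Apoc3 -0.49 to 0.44, Apoh -0.06 to 0.54, Apom -0.15 to 0.46. CKO on NOX_6_18, WAT: Apob -0.17 to 0.46, Apoc1 -0.12 to 0.06, Apoe -0.06 to 0.02, Apoh -0.05 to 0.49, Apom -0.14 to 0.2. NOX_6_18 in CKO, liver: Apob -0.08 to 0.07, Apoc1 -0.1 to 0.06, Apoe -0.04 to 0.46, Apoh -0.04 to 0.05, Apom -0.2 to 0.01. CKO on NOX_6_18, liver: Apoa1 -0.07 to 0.02, Apob -0.06 to 0.54, Apoc1 -0.05 to 0.1, Apoc3 -0.51 to 0.13, Apom -0.53 to 0.09. Apoe ran from -0.35 to 0.29 for NOX_6_18 in fl/fl liver, and its interaction from -0.4 to 0.05 in WAT and -0.1 to 0.54 in liver. Between tissues, Apoa4 ran from -2.21 to 6.31 (NOX_6_18) and -2.05 to 5.44 (CKO), Apoc3 from -0.52 to 6.13 and Apoe from -0.23 to 0.32 (CKO). In WAT the called genes split into 6373 higher and 3411 lower for NOX_6_18 in fl/fl, 7496 and 1585 with totals only (all-gene median up by 0.17), and 5869 and 5286 after removing the GC and length trend. The causes were not tested.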
